A study of Mus musculus with 5 samples.

Results

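The comparison set the genomic positions called for E2F3A against those called for E2F3B, the products of a single gene, E2f3. The peaks came from ChIP-seq, the sequencing of DNA precipitated with an antibody against a bound protein, in mouse embryonic fibroblasts. These are connective tissue cells taken from embryos, here of a mixed FVB/NT, 129S1/Svlmj and C57BL/6NT background. One population overexpressed E2F3A and the other E2F3B. Both were proliferating without synchronization in medium with 10% serum, and both were precipitated with the same antibody lot against E2F3. The members were all peaks of these lists, 6702 of the 10489 peaks in the 3 lists used. The E2F3B list held 4704 of them, and the E2F3A list the remaining 1166 without and 832 with an overlapping E2F3B peak. The third list, 3787 peaks from cells overexpressing E2F1 precipitated with an E2F1 antibody, served only to describe the E2F3 peaks. The knockout samples labelled 1-/- and 3-/- were not analysed here. Whether the overexpressing cells also made E2F3 from their own gene, and how much of each isoform they held, was not given in the sources used here. With 1 library per isoform there was no replicate spread and no test between isoforms was possible. Intervals below are 95% intervals over peaks (Wilson for shares, order-statistic binomial for medians). They cover counting error alone, and peaks are not replicates of a condition.

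E2F proteins bind DNA together with a DP partner at promoters, among them those of many genes used in replication and the cell cycle. Their activity is held back by binding of the retinoblastoma protein family. E2F3A and E2F3B share the DNA-binding, dimerization and retinoblastoma-binding parts and differ at the N-terminus, because transcription starts at separate promoters with different first exons. E2F3A has long been grouped with the activators, while E2F3B has been described both as a repressor and as an activator. A peak here is an interval that the caller MACS reported, with a start and an end and no score, summit or read count. The centre of a peak is therefore its midpoint, and its width stands for nothing but the called interval.

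The RefSeq promoter table (GRCm38.p6) lists 2 start sites for E2f3, on the minus strand of chromosome 13. They are shown because the isoforms arise from separate starts and because the first holds the letters of an E2F site form. Neither start was assigned to an isoform here. Capitals mark any match to the E2F site forms TTTCCCGC, TTTCGCGC, TTTGCCGC or TTTGGCGC on either strand.
E2f3 start 1: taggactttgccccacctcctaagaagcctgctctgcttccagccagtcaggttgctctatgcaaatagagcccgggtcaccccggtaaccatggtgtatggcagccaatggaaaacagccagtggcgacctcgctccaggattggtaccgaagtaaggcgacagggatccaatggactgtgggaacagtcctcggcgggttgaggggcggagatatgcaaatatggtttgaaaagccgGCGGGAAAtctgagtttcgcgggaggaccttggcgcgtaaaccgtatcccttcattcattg
E2f3 start 2: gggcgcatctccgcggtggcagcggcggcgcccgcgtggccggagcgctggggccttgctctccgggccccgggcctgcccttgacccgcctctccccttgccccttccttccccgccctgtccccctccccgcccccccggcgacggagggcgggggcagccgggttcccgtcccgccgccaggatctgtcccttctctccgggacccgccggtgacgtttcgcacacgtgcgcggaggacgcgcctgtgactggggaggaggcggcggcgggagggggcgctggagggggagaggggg
The first sequence had 1 match, GCGGGAAA from base 240 of the 300 bases shown, which is TTTCCCGC on the opposite strand. The second sequence had 0 matches, which says only that these letters are not in that window. Of the 32851 promoter sequences of this length in the table, 744 (2.26%) held at least 1 of the forms. A match is a run of letters and not a measured site. The peak lists use the mm9 build, so no peak was assigned to these starts, and peak sequences and genes at peaks were not analysed here.

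The lists met at a minority of their peaks. Overlap of at least 1 bp gave 840 pairs of an E2F3A and an E2F3B peak. They joined 832 E2F3A peaks (41.6%, interval 39.5 to 43.8) to 833 E2F3B peaks (17.7%, 16.6 to 18.8), and 1166 E2F3A and 3871 E2F3B peaks had no partner. Almost no pair depended on the threshold of 1 bp, since the smallest overlaps were 29 and 42 bp and the median overlap was 314.5 bp. Just outside the threshold, 5 unpaired E2F3A and 11 unpaired E2F3B peaks lay within 100 bp of a peak of the other isoform. The median overlap covered 95.8% of the E2F3A peak and 73.2% of the E2F3B peak.

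Where both isoforms were called, their peaks were centred close together and without a preferred side. The absolute distance between the centres had a median of 55.5 bp (interval 51.5 to 60.5, n = 840 pairs) and quartiles of 26 and 103 bp. Centres lay within 25 bp of each other in 207 pairs (24.6%), within 50 bp in 387 (46.1%), within 100 bp in 627 (74.6%) and within 200 bp in 795 (94.6%). The E2F3B centre was at the higher coordinate in 419 pairs and at the lower in 417, and 4 pairs had the same centre. The median signed offset, E2F3B minus E2F3A, was 0 bp (interval -4.5 to 6.5), with quartiles of -55.5 and 53.6 bp. Against the largest offset at which the peaks would still touch, the median offset was 13.6%. The lists hold no gene strand here, so a shift along the direction of transcription would not show.

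**Figure D1:**
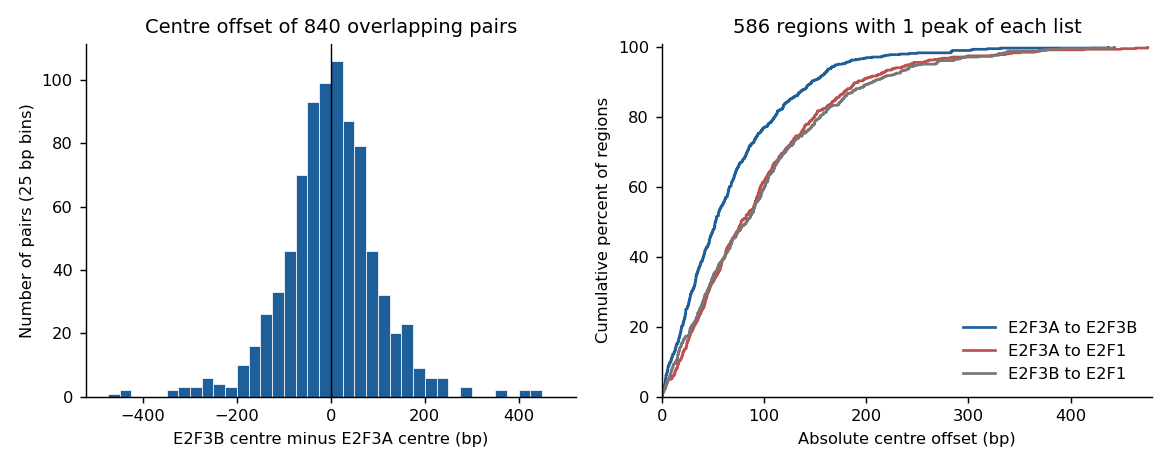
Left, the number of pairs (y axis) by the E2F3B centre minus the E2F3A centre in bp (x axis, 25 bp bins). Right, the cumulative percent of the 586 regions with 1 peak of each list (y axis) by absolute centre offset in bp (x axis), with a line for each pair of lists. The left distribution is centred at 0 bp, and on the right the E2F3A to E2F3B line reaches 50% at 52.5 bp, before the lines of E2F3A to E2F1 at 77.5 bp and E2F3B to E2F1 at 82.5 bp.

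The E2F1 list gave a yardstick that the pairing of the isoforms did not use. In 586 regions each of the 3 lists had exactly 1 peak and all 3 overlapped in pairs. The median offset there was 52.5 bp between E2F3A and E2F3B (interval 47.5 to 58), 77.5 bp between E2F3A and E2F1 (70.5 to 90) and 82.5 bp between E2F3B and E2F1 (72.5 to 91). The isoform offset was the smallest of the 3 in 257 regions (43.9%, interval 39.9 to 47.9), E2F3A to E2F1 in 162 (27.6%) and E2F3B to E2F1 in 166 (28.3%). E2F1 peaks in these regions were wider, with a median of 728 bp against 484 bp for E2F3B and 373 bp for E2F3A. Relative to the largest offset possible for their widths, the medians came to 12.5%, 13.9% and 12.98%, and the intervals of the 3 met. On this scale the intervals of the separate medians did not set the isoform offset apart from the offsets to E2F1. The relative offsets were not compared within regions. Neither isoform was nearer to E2F1, since the E2F3A centre was the nearer in 290 regions and the E2F3B centre in 292.

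The 5 pairs farthest apart all had an E2F1 peak, as did 653 of the 840 pairs (77.7%), and 3 of the 5 were among the 71 pairs of chromosome 17. On chromosome 17 (mm9), the E2F3A peak from 57171324 to 57171833 and the E2F3B peak from 57170794 to 57171460 had centres 451.5 bp apart and shared 137 bp. On chromosome 16, the E2F3A peak from 20622437 to 20622741 and the E2F3B peak from 20621806 to 20622486 were 443 bp apart and shared 50 bp. An offset of 437 bp was found both on chromosome 13, for E2F3A from 30077552 to 30078394 and E2F3B from 30077320 to 30077752, and on chromosome 17, for E2F3A from 26644843 to 26645351 and E2F3B from 26645021 to 26646047. In the last of the 5, on chromosome 17, an E2F3A peak from 56442618 to 56442965 lay inside an E2F3B peak from 56442503 to 56443931, with centres 425.5 bp apart. Only the chromosome 17 pair from 26644843 was a pair of 1 peak with 1 peak, and the other 4 belonged to groups in which a peak had 2 partners.

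The pairs most alike had nearly the same start and end, although no pair had both in common. On chromosome 17, E2F3A from 36368118 to 36368620 and E2F3B from 36368118 to 36368622 shared 99.6% of their joint length. Also on chromosome 17, E2F3A from 35137630 to 35138014 and E2F3B from 35137632 to 35138012 shared 98.96% and had the same centre. The next were E2F3A from 20672162 to 20672608 with E2F3B from 20672162 to 20672602 on chromosome 10 (98.7%), and E2F3A from 13780479 to 13780904 with E2F3B from 13780484 to 13780903 on chromosome 16 (98.6%). The last, on chromosome 10, had E2F3A from 90633134 to 90633601 and E2F3B from 90633127 to 90633607 (97.3%). Of these 5, the chromosome 17 pair from 35137630 and the chromosome 10 pair from 90633134 had an E2F1 peak. Over all pairs the shared part was a median of 65.1% of the joint length (quartiles 52.6% and 77.2%).

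E2F3B peaks were the wider of the pair in most regions. Paired E2F3A peaks spanned 364 bp in the median and paired E2F3B peaks 455 bp. The ratio of the E2F3B to the E2F3A width had a median of 1.22 (interval 1.18 to 1.26, n = 840 pairs), quartiles of 0.97 and 1.61 and a range from 0.415 to 4.11. E2F3B was wider in 606 pairs (72.1%, interval 69.0 to 75.1) and E2F3A in 234 (27.9%), and no pair had equal widths. E2F3B was at least 1.5-fold wider in 263 pairs and at least 2-fold wider in 84, while E2F3A was so in 39 and 7. In 362 pairs (43.1%) the E2F3A peak lay inside the E2F3B peak, in 93 (11.1%) the E2F3B peak lay inside the E2F3A peak, and in 385 (45.8%) the peaks were staggered. Of the staggered pairs, 201 had E2F3B at the higher and 184 at the lower coordinates. Taken separately over all pairs, the E2F3B start lay a median of 40 bp before the E2F3A start, and the E2F3B end a median of 37 bp after the E2F3A end. Unpaired peaks of the isoforms differed less, with medians of 333 bp for E2F3A (interval 328 to 337) and 347 bp for E2F3B (344 to 350). Depth and the caller's settings can set the width of a call, and their part in the ratio was not tested.

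**Figure D2:**
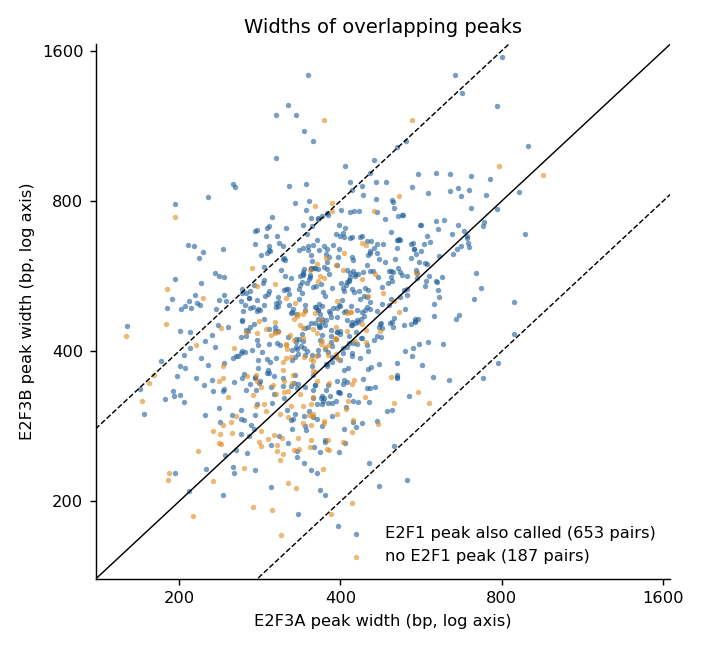
Each point is 1 of 840 overlapping pairs, with the width of the E2F3A peak in bp on the x axis and that of the E2F3B peak on the y axis, both log axes, and colour for an E2F1 peak at the pair. The solid line marks equal widths and the dashed lines 2-fold differences. Of the points, 606 lie above the solid line, 84 on or above the upper dashed line and 7 on or below the lower one.

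The ratio was higher where E2F1 was also called. The 653 pairs with an E2F1 peak had a median ratio of 1.26 (interval 1.22 to 1.30) and the 187 pairs without one 1.12 (1.08 to 1.16). E2F3B was at least 1.5-fold wider in 34.6% of the former (interval 31.1 to 38.3) and 19.8% of the latter (14.7 to 26.1). The E2F3B widths differed more between these sets than the E2F3A widths, at medians of 485 and 367 bp against 374 and 340 bp. The centre offsets did not follow, with medians of 55.5 bp (51.5 to 62.5) and 52 bp (44.5 to 63). An E2F1 peak anywhere in the joint span of a pair was counted, and wide E2F3B peaks met E2F1 more often. Of paired E2F3B peaks, 51.9% of those up to 283 bp and 83.8% of those from 364 bp were on E2F1. The E2F3B width is a term of the ratio, so the difference in ratio can be in part built in. Median ratios lay above 1 on all 20 chromosomes, from 1.09 on chromosome 19 to 1.56 on chromosome 12, where 12 and 21 pairs stood behind the value.

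Widths of the isoforms at a pair were only loosely related. Over the 810 pairs of 1 peak with 1 peak, the log2 widths correlated at r = 0.38 (Pearson) and rho = 0.37 (Spearman), a description of points that share a region. Between the 400 narrowest E2F3A peaks (140 to 277 bp) and the 400 widest (396 to 956 bp), the median ratio went from 1.66 to 1.07. Between the 941 narrowest E2F3B peaks (up to 283 bp) and the 941 widest (474 to 1552 bp) it went from 0.79 to 1.53. Both trends are in part built in, because the sorted width is a term of the ratio. Pairing was most common among wide peaks, at 78.8% of the 400 widest E2F3A peaks (interval 74.5 to 82.5) and 40.7% of the 941 widest E2F3B peaks (37.6 to 43.9). In the 4 other width classes of like size it lay between 28.3% and 37% for E2F3A, and between 8.50% and 20.3% for E2F3B.

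The extreme ratios came from peaks nested in one another, with 1 exception. On chromosome 17 the E2F3A peak from 56442618 to 56442965 (348 bp) had the highest ratio, 4.11, in its E2F3B peak of 1429 bp. On chromosome 11, E2F3A from 96838963 to 96839159 (197 bp) lay in E2F3B from 96838574 to 96839362 (789 bp), a ratio of 4.01. On chromosome 1, E2F3A from 88338491 to 88338793 (303 bp) lay in E2F3B from 88338451 to 88339637 (1187 bp), a ratio of 3.92. On chromosome 17, E2F3A from 48549401 to 48549719 (319 bp) lay in E2F3B from 48548853 to 48550096 (1244 bp), a ratio of 3.90. The last of these 5, on chromosome 10, had E2F3A from 122423499 to 122423695 (197 bp) in E2F3B from 122423044 to 122423786 (743 bp), a ratio of 3.77, and no E2F1 peak. In the opposite direction the lowest ratio was 0.415 on chromosome 7, for E2F3B from 134339568 to 134339788 (221 bp) inside E2F3A from 134339308 to 134339839 (532 bp). It was 0.452 on chromosome 4, for E2F3B from 132091337 to 132091515 inside E2F3A from 132091304 to 132091699. It was 0.456 on chromosome 15, for E2F3B from 57973074 to 57973288 inside E2F3A from 57972871 to 57973342. On chromosome 10, E2F3B from 128360056 to 128360254 extended past E2F3A from 128360084 to 128360503 on 1 side (0.474). On chromosome 4, E2F3B from 133369950 to 133370303 lay inside E2F3A from 133369587 to 133370324 (0.480). Of these 10 pairs, the chromosome 10 pairs from 122423499 and 128360084 were the 2 without E2F1.

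Overlaps of 1 peak with several were rare and about as frequent in each direction. The 840 pairs formed 825 groups of connected peaks, of which 810 (98.2%) held 1 peak of each isoform. In 8 groups 1 E2F3A peak met 2 E2F3B peaks, and in 7 groups 1 E2F3B peak met 2 E2F3A peaks. No group held 4 or more peaks. With peaks of a list that lay within 100 bp of each other joined first, 7 groups of 1 peak with several were counted, in place of 15. Joining can also form new groups, so these 7 need not be among the 15. An E2F1 peak lay at 14 of these 15 groups (93.3%, interval 70.2 to 98.8) and at 626 of the 810 single pairs (77.3%, 74.3 to 80.0), and the intervals met. The gaps inside a group ran from 16 to 125 bp (median 29.5 bp) between the E2F3B peaks and from 3 to 225 bp (median 71 bp) between the E2F3A peaks.

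The 2 kinds of group differed in median span, with ranges that met. It was 1072 bp (726 to 1429 bp) with 2 E2F3A peaks and 798.5 bp (528 to 1075 bp) with 2 E2F3B peaks. Where 1 E2F3B peak met 2 E2F3A peaks, it was wide, with a median of 1053 bp and a range from 651 to 1429 bp. A peak that meets 2 others has to reach across the gap between them, so its width is in part built in. Where 1 E2F3A peak met 2 E2F3B peaks, its median width was 372 bp, within 10 bp of the 364 bp of all paired E2F3A peaks, and its range ran from 297 to 843 bp. The naming rule covered groups of at least 4 peaks, so the following were picked after their values were seen, as the longest of each kind. On chromosome 17 from 56442503 to 56443931, E2F3A peaks of 348 and 653 bp, 194 bp apart, lay under 1 E2F3B peak of 1429 bp. On chromosome 15 from 103069488 to 103070740, E2F3A peaks of 544 and 373 bp met an E2F3B peak of 1162 bp, in the only group without E2F1. On chromosome 13 from 30077320 to 30078394, E2F3B peaks of 433 and 503 bp, 16 bp apart, met an E2F3A peak of 843 bp. On chromosome 16 from 20621806 to 20622778, E2F3B peaks of 681 and 253 bp met an E2F3A peak of 305 bp.

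Close neighbours within a list were more frequent for E2F3B than these groups show. Of 4684 consecutive E2F3B peaks on a chromosome, 210 (4.48%, interval 3.93 to 5.11) were at most 500 bp apart, against 17 of 1978 for E2F3A (0.859%, 0.537 to 1.37) and 46 of 3767 for E2F1 (1.22%, 0.917 to 1.62). Neither neighbour overlapped E2F3A in 134 of the 210, 1 did in 60 and both did in 16. Of all E2F3B peaks, taken singly, 82.3% had no E2F3A partner. Of the 17 close E2F3A neighbours, both overlapped E2F3B in 15. Of all E2F3A peaks, taken singly, 41.6% had a partner. These shares of single peaks are not the rates for 2 peaks at once, which were not computed. A single E2F1 peak spanned 87 of the 210 E2F3B gaps and 13 of the 17 E2F3A gaps. The lists differ in length, and the part of this in the count of close neighbours was not tested.

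The peaks without a partner differed between the isoforms in how often E2F1 was called there. Of the 1166 unpaired E2F3A peaks, 66 overlapped an E2F1 peak (5.66%, interval 4.47 to 7.14), against 1087 of the 3871 unpaired E2F3B peaks (28.1%, 26.7 to 29.5). Over all peaks of a list the shares on E2F1 were close, 35.5% for E2F3A (interval 33.5 to 37.7) and 36.8% for E2F3B (35.5 to 38.2). When pairing needed an overlap of 50% of both peaks, 165 of 1292 unpaired E2F3A peaks (12.8%, 11.1 to 14.7) and 29.7% of unpaired E2F3B peaks (28.3 to 31.2) were on E2F1. Among paired peaks the shares were alike, 77.4% for E2F3A and 77.4% for E2F3B, as they come from the same regions. Pairing took out 644 of the 710 E2F3A peaks on E2F1, but 645 of the 1732 E2F3B peaks on E2F1. With shares alike over all peaks and among paired peaks, lists of unequal length give the difference among unpaired peaks by construction. Within bands of width set by the quartiles of the unpaired E2F3A peaks, the difference was present in each band, and the bands do not remove its built-in part. Up to 283 bp, 4.48% of unpaired E2F3A (interval 2.64 to 7.52) and 21.5% of unpaired E2F3B peaks (18.9 to 24.3) were on E2F1. From 284 to 333 bp the shares were 4.29% (2.52 to 7.20) and 17.9% (15.4 to 20.7), and from 334 to 363 bp 5.08% (3.11 to 8.22) and 18.02% (15.3 to 21.1). From 364 bp on they were 8.99% (6.17 to 12.9) and 41.1% (38.7 to 43.5). Among paired peaks of up to 283 bp the order was the opposite, with 75.7% of E2F3A (68.8 to 81.6) and 51.9% of E2F3B peaks (41.1 to 62.4) on E2F1, and in the wider bands the intervals of the paired peaks met. Counting E2F3A against E2F3B at all E2F1-overlapping peaks gave an E2F3A share of 29.1% (interval 27.3 to 30.9), and 30.2% (28.9 to 31.6) at the peaks outside E2F1. Binding of E2F3B below the caller's threshold at an E2F3A peak, or the reverse, would be counted as unpaired, and this was not tested.

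**Figure D3:**
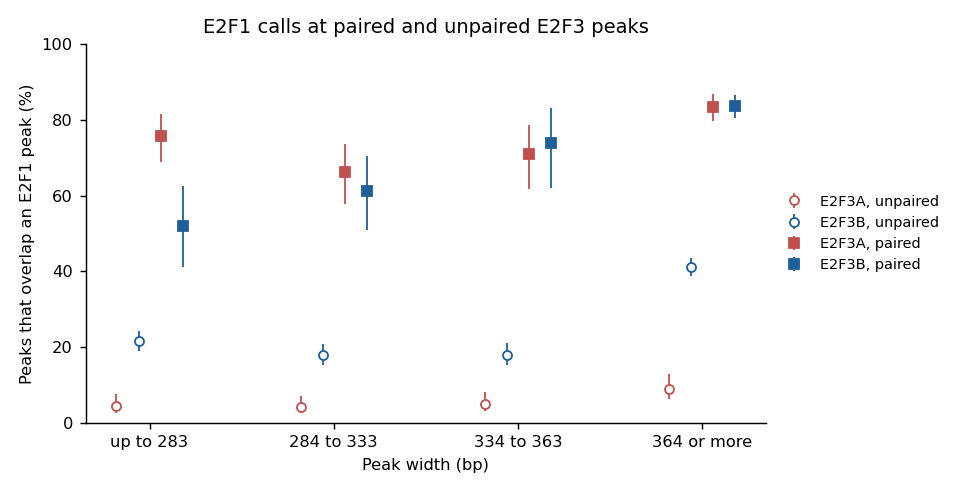
The percent of peaks that overlap an E2F1 peak (y axis) in 4 bands of peak width in bp (x axis), for E2F3A and E2F3B peaks with (filled squares) and without (open circles) a partner of the other isoform. Bars are 95% Wilson intervals over peaks. In each band the unpaired E2F3A peaks, at 4.29% to 8.99%, lie below the unpaired E2F3B peaks, at 17.9% to 41.1%. Paired peaks were taken out of lists of unequal length, so this order is in part built in.

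Most unpaired peaks of each isoform lay more than 100000 bp from the nearest peak of the other. The gap from an unpaired E2F3A peak to the nearest E2F3B peak was at most 1000 bp in 32 (2.74%), at most 5000 bp in 62 (5.32%) and at most 100000 bp in 452 (38.8%). For unpaired E2F3B peaks the counts were 106 (2.74%), 166 (4.29%) and 1126 (29.1%). E2F1 was called at 13 of the 32 E2F3A peaks with an E2F3B peak within 1000 bp (40.6%, interval 25.5 to 57.7), and at 17 of the 714 more than 100000 bp away (2.38%, 1.49 to 3.78). For E2F3B the shares were 49.1% (39.7 to 58.4) and 26.9% (25.3 to 28.6).

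The balance of the isoforms along the genome was described by the E2F3A share, the E2F3A peaks as a percent of E2F3A and E2F3B peaks together. Genome-wide it was 29.8% (interval 28.7 to 30.9), or 2.35 E2F3B peaks for each E2F3A peak. Chromosome 15 had the highest share, 36.2% (31.9 to 40.8), from 159 E2F3A and 280 E2F3B peaks. Chromosome 14 followed with 33.96% (28.5 to 39.8) and chromosome 17 with 32.9% (28.5 to 37.5). Chromosome 19 had the lowest, 19.3% (14.2 to 25.8), from 34 E2F3A and 142 E2F3B peaks, then chromosome 18 with 24.1% (16.2 to 34.3) and chromosome 7 with 24.7% (20.1 to 29.9). The interval lay above the genome-wide share on chromosome 15, below it on chromosome 19, and spanned it on the other 18 chromosomes.

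By a fold of 1.5 in the ratio of E2F3A to E2F3B peaks, 1 of 20 chromosomes (5%), chromosome 19, was tilted towards E2F3B and 0 of 20 (0%) towards E2F3A. The ratio on chromosome 19 was 0.564 of the genome-wide ratio and on chromosome 15 it was 1.34 times that ratio. Counting only unpaired peaks, chromosomes 7, 11 and 19 were past 1.5-fold towards E2F3B. They stood at 0.474, 0.642 and 0.562 of the genome-wide ratio of unpaired peaks, and chromosome 15 at 1.48. Pairing takes out like numbers of each isoform, so a chromosome where many E2F3A peaks are paired tilts towards E2F3B by construction. By all peaks, chromosomes 7 and 11 had shares of 24.7% and 26.1%, with intervals that spanned the genome-wide share. The Pearson chi-square of the chromosome counts over its degrees of freedom, for which independent peaks would give about 1, was 2.05, and 1.63 without chromosome 19. Across the 20 chromosomes the E2F3A share and the number of peaks correlated at r = 0.63 (Pearson) and rho = 0.61 (Spearman), a description of values from the same 2 libraries. The E2F3A peaks are counted in both values. Windows of 5 Mb showed no such rise, with a share of 31.2% in those of 5 to 9 peaks and 28.2% in those of 30 or more.

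Chromosomes differed also in how many E2F3A peaks had an E2F3B partner. On chromosome 7, 48 of 73 did (65.8%, interval 54.3 to 75.6), and on chromosome 11, 59 of 105 (56.2%, 46.6 to 65.3), against 41.6% genome-wide. Chromosome 4 with 51.6% (42.9 to 60.3) and chromosome 17 with 51.5% (43.1 to 59.7) also had intervals above the genome-wide share, and chromosome 10 with 31.6% (24.7 to 39.3) had one below it. The same measure for E2F3B ran from 7.94% on chromosome 18 (5 of 63 peaks) to 24.8% on chromosome 17 (69 of 278). Chromosome 7 had a low E2F3A share and the highest pairing of E2F3A, while chromosome 19 had the lowest E2F3A share and a pairing of 35.3% (21.5 to 52.1).

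**Figure D4:**
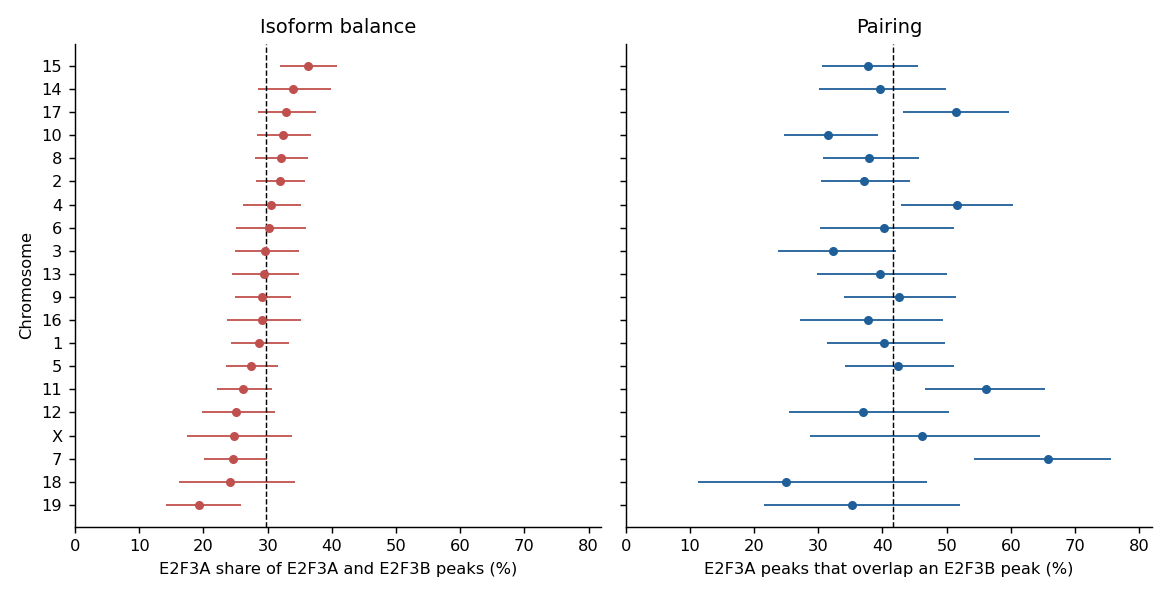
For each chromosome (y axis, ordered by E2F3A share), the E2F3A share of E2F3A and E2F3B peaks in percent (left) and the percent of E2F3A peaks that overlap an E2F3B peak (right). Points are the values of the 2 libraries, bars are 95% Wilson intervals over peaks and dashed lines are the genome-wide values, 29.8% and 41.6%. Chromosome 15 lies above the left line and chromosome 19 below it, and chromosome 7 at 65.8% lies farthest above the right line.

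In windows of 5 Mb the counts of the isoforms went together. Of the 517 windows with a peak of either isoform, 453 (87.6%) held both, 55 (10.6%) held E2F3B alone and 9 (1.74%) held E2F3A alone. Windows with a single isoform were poor in peaks, with a median of 3 and at most 14 peaks for E2F3B alone and a median of 1 and at most 5 for E2F3A alone. Across the 517 windows these counts correlated at r = 0.80 (Pearson) and rho = 0.72 (Spearman), which describes 2 lists that share 840 pairs. The 260 windows with at least 10 peaks held 5359 of the 6702 peaks, and their E2F3A share had a median of 29.4% and quartiles of 23.1% and 35.9%.

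Past a fold of 2 from the genome-wide ratio, 19 of these 260 windows (7.31%) were tilted towards E2F3A and 23 (8.85%) towards E2F3B. The interval of the window's share lay above 29.8% in 8 windows and below it in 3. E2F3A peaks outnumbered E2F3B peaks in 10 windows and equalled them in 7. The chi-square over its degrees of freedom was 0.907 for these windows, under the value of about 1 for independent peaks. Paired peaks add 1 to each isoform and narrow that spread by construction. With unpaired peaks alone the value was 1.47 over 205 windows. Against the genome-wide ratio of unpaired peaks, 26 of these were past 2-fold towards E2F3A and 53 towards E2F3B. Together they made up 38.5% of the 205 windows, against 16.2% of the 260 with all peaks. Taking out pairs tilts a window where many E2F3A peaks are paired towards E2F3B by construction. This can raise both the spread and the count towards E2F3B, and its part was not tested. With all peaks at 10 Mb, the chi-square over its degrees of freedom was 1.02. Of those 218 windows, 14 were past 2-fold towards E2F3A and 13 towards E2F3B. With at least 20 peaks in a window of 5 Mb, 5 of 106 windows were past 2-fold, all 5 towards E2F3B. Shares of neighbouring windows were weakly related, at r = 0.19 (Pearson) and rho = 0.17 (Spearman) over 157 neighbours.

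**Figure D5:**
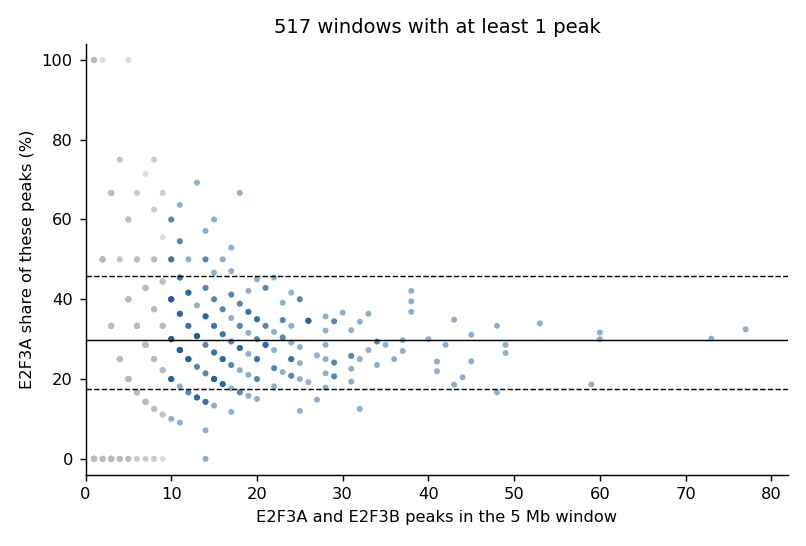
Each point is 1 of 517 windows of 5 Mb, with the number of E2F3A and E2F3B peaks on the x axis and the E2F3A share in percent on the y axis. Grey points have fewer than 10 peaks, the solid line is the genome-wide 29.8%, and the dashed lines mark a 2-fold change of the ratio. The spread of the points narrows as the number of peaks grows, and the window with 77 peaks lies at 32.5%.

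The windows richest in E2F3A were found on chromosomes 3, 8, 10 and 15. On chromosome 15 from 50 to 55 Mb there were 9 E2F3A and 4 E2F3B peaks (69.2%, interval 42.4 to 87.3), with 16 E2F1 peaks. Neighbouring windows on chromosome 8 were both among the 6 highest, with 12 and 6 peaks from 60 to 65 Mb (66.7%, 43.7 to 83.7) and 7 and 4 peaks from 65 to 70 Mb (63.6%, 35.4 to 84.8). In each of these 2 windows 1 E2F3A peak had an E2F3B partner, and the windows held 2 and 3 E2F1 peaks. Shares of 60% were reached on chromosome 3 from 90 to 95 Mb, with 9 and 6 peaks, and on chromosome 10 from 65 to 70 Mb and chromosome 8 from 5 to 10 Mb, with 6 and 4 peaks each. These windows were chosen for their shares, so the shares are descriptions.

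The windows poorest in E2F3A included 2 on chromosome 19. From its start to 5 Mb chromosome 19 held 0 E2F3A and 14 E2F3B peaks (upper bound of the interval 21.5%) and 8 E2F1 peaks, and from 30 to 35 Mb it held 1 and 13. Chromosome 2 from 180 to 185 Mb had 1 E2F3A and 10 E2F3B peaks, chromosome 15 from 90 to 95 Mb 1 and 9, and chromosome 3 from 100 to 105 Mb 2 and 15. Chromosome 5 from 120 to 125 Mb, with 3 and 22 peaks (12%, interval 4.17 to 29.96), had the most peaks of these 6. Chromosome 3 and chromosome 15 thus appeared at both ends of the order.

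In 4 of the 5 windows with the most peaks the isoforms stood close to the genome-wide balance. Chromosome 15 from 75 to 80 Mb held 25 E2F3A and 52 E2F3B peaks (32.5%), chromosome 17 from 25 to 30 Mb 22 and 51 (30.1%), chromosome 5 from 135 to 140 Mb 19 and 41 (31.7%) and chromosome 8 from 70 to 75 Mb 18 and 42 (30%). Chromosome 10 from 75 to 80 Mb, with 11 and 48 peaks, had a share of 18.6% (interval 10.7 to 30.4). The E2F3A share changed little with the number of peaks, from 31.2% (28.5 to 34.0) in windows of 5 to 9 peaks to 28.2% (26.1 to 30.4) in the 40 windows of 30 or more. The pairing of E2F3A did change over the same windows, from 25.3% (21.0 to 30.1) to 58.2% (53.7 to 62.5). A paired E2F3A peak adds its E2F3B partner to the count that sorted the windows, so this trend is in part built in.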

How the data were processed

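Each deposited list gives chromosome, start, end and name of the peaks the authors called in 1 sample, in the file headers' columns, with no score, fold or count, so depth per library is unknown. Bowtie2, SAMtools and the build mm9 are named, without tool versions, in the submitters' processing notes, and the peak names carry the name MACS. Control, threshold, filters and duplicate handling: not given in the sources used here. Per the labels' protocols, 10 ng of precipitated DNA went through 14 cycles of PCR and libraries of 200 to 300 bp were kept. Starts were taken to count from 0, and 1 was added for printing.

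Pairs are peaks overlapping by at least 1 bp, and groups are connected pairs. Windows of 5 Mb were counted from position 0 by peak centre, and shares were read where a window held at least 10 peaks. A tilt is the ratio of E2F3A to E2F3B peaks over the genome-wide ratio. Named regions followed a fixed rule: the 5 pairs most apart, most alike, and highest and lowest in width ratio, the 3 highest and 3 lowest chromosomes, the 6 highest and 6 lowest windows, and the 5 fullest windows. The members and lists were chosen with earlier results of these data known. Widths in bands and the neighbours within a list were added after the values were seen. Pairing criteria, peaks counted, window grids and minimums were varied. In 5 simulated sets the 800 planted pairs and their offset were recovered. Python 3.11.15, numpy 2.4.6, scipy 1.17.1 and pandas 2.3.3 were used.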

Additional observations from a re-analysis of the deposited data

How the results depend on the processing

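No paired analysis was possible because the labels carry no replicate numbers and there was 1 library per group. Of 62 alternative values, 33 stayed within the interval of the value reported, or within 1.5 times a count or 10% of a spread. The side with more tilted windows turned at 10 Mb, and the window spread passed 1 there and with unpaired peaks. The share of E2F3A peaks paired went to 35.3% with 50% reciprocal overlap, 31.4% with centres within 100 bp and 29.6% against only as many of the widest E2F3B peaks as there were E2F3A peaks. For E2F3B peaks it went to 15.0%, 13.3% and, within 500 bp, 19.3%. The median offset was 49.5 bp with reciprocal overlap, 65 bp among peaks at or over the median width of their list and 62.5 bp with the equal number of widest E2F3B peaks. The median width ratio was 1.17 with reciprocal overlap, 1.36 with that equal number, 1.26 with E2F1 and 1.12 without. Joining peaks of a list within 100 bp gave 7 groups of 1 with several, in place of 15. The E2F3A share was 23.1% of unpaired peaks and 27.7% of base pairs covered. With unpaired peaks, set against their own genome-wide ratio, 3 chromosomes were past 1.5-fold and 79 of 205 windows past 2-fold, in place of 42 of 260. Taking out pairs tilts well-paired places towards E2F3B by construction. Windows past 2-fold numbered 27 of 218 at 10 Mb (14 towards E2F3A and 13 towards E2F3B, against 19 and 23 at 5 Mb), 105 of 420 with at least 5 peaks and 5 of 106 with at least 20. The chi-square over degrees of freedom of the windows, 0.907, was 1.47 with unpaired peaks, 1.02 at 10 Mb and 0.725 with at least 20 peaks, and, in alternatives chosen after seeing the data, that of the chromosomes, 2.05, was 2.92 with unpaired peaks and 1.63 without chromosome 19. Also chosen after seeing the data, the share of unpaired E2F3A peaks on E2F1, 5.66%, was 12.8% when pairing needed 50% reciprocal overlap. That of unpaired E2F3B peaks, 28.1%, was 29.7% by the same criterion and 30.2% with E2F1 within 500 bp. Of the 19 named pairs, 14 failed reciprocal overlap and 10 had centres over 100 bp apart. The named windows were counted again with unpaired peaks, with the equal number of widest E2F3B peaks and with peaks within 10 kb joined. Each time the 6 richest in E2F3A stayed above the genome-wide share of the peaks so counted, and the 6 poorest below it. With the equal number, chromosome 15 from 90 to 95 Mb reached 33.3%, over the 29.8% of all peaks. These windows were chosen by their shares in the same peaks, so keeping their side is close to fixed in advance. The causes were not tested. The depth of the libraries is unknown, which limits what an unpaired peak shows.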
